A study of Mus musculus with 16 samples.

Results

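Eml1 and the other genes of its family were followed in embryonic mouse brain, in mutants that carry a defect in Eml1 and in wild-type embryos. The members are every probe that the platform annotation assigns to Eml1, Eml2, Eml3, Eml4, Eml5 or Eml6, each kept separate, together with the unannotated probe ILMN_1229073. This gave 15 of the 45281 probes on the array. The Eml1 probes and ILMN_1229073 were chosen by their difference between the genotypes on these same arrays, so that difference is described here without a test. The probes of Eml2 to Eml6 were taken by gene symbol alone. RNA had been prepared from brain at embryonic day 18 and hybridised, in 1 colour, to Illumina bead arrays. The series holds 8 arrays of HeCo mutants and 8 of controls titled wt, all on the strain NOR/CD-1. The labels give neither the zygosity of the mutants nor whether each array stands for a separate animal, so errors and p-values cover the spread between these samples. Arrays are named below by genotype and title number.

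The EML proteins (echinoderm microtubule-associated protein-like) bind microtubules through a large domain of WD repeats next to a conserved hydrophobic motif. Eml1 to Eml4 also have a coiled coil at the start of the protein through which they associate with each other, whereas Eml5 and Eml6 lack it and carry the WD-repeat domain in tandem copies. Loss of Eml1 in HeCo (heterotopic cortex) mice, and mutation of EML1 in people, leads to a band of neurons misplaced beneath the cortex, with dividing progenitors found away from the ventricle.

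The RefSeq promoter table (build GRCm38.p6; 250 bases before to 50 after each annotated start) had windows for all 6 genes. The first window by coordinate is shown for Eml1 and for Eml4, which lie at opposite ends of the family in CpG content. For Eml1 this is the window with the most CpG of its 5. Each CpG dinucleotide is in capitals and the sequence is on the plus strand.

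Eml1 chr12:108370903-108371202: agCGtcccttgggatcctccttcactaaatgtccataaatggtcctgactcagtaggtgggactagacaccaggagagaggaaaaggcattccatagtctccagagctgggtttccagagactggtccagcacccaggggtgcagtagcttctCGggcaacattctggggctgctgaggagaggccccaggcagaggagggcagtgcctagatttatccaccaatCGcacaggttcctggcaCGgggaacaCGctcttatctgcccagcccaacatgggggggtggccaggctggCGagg

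Eml4 chr17:83350681-83350980: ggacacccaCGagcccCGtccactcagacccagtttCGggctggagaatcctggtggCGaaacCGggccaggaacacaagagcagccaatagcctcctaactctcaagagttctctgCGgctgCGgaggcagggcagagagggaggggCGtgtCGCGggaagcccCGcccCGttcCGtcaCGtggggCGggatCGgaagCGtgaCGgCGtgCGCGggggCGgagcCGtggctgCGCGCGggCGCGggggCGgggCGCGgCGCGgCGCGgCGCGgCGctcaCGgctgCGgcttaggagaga

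Eml1 has 5 annotated starts, spread over 124143 bases. Their windows hold 2, 3, 5, 5 and 6 CpG dinucleotides (searched as CG, which reads the same on both strands), all below the median of 7 over all 32851 windows. The windows with 2 and 3 overlap almost entirely. The Eml4 windows hold 39 and 40, more than 95.6% and 96.1% of all windows. Eml2 (12 and 19), Eml3 (27 and 28), Eml5 (25) and Eml6 (20) lie between, all above the median. The array values do not say from which start a transcript came.

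Signals were background-corrected and quantile-normalized and are given as log2 values, on which background lies a little above 4. A probe was called detected on an array where its deposited detection p-value was under 0.05, and kept for fitting where it was detected on at least 8 of the 16 arrays. Over the series, the mean deposited signal per array ran from 374.9 to 597.9, and 17694 to 19553 probes were detected. Of 5 neuron markers, 3 were detected on all arrays and Snap25 on none, while of 3 liver markers Alb and Afp were detected on none. The third, Ttr, which the choroid plexus of the brain also makes, was detected on all arrays (13.9 to 14.54), as were all 3 red blood cell markers (mean log2 signal 13.06 to 13.49). HeCo 7 and HeCo 16 stood apart: the mean log2 signal of markers of the diencephalon, midbrain and hindbrain was 5.31 and 5.54 there, against 7.10 to 7.86 in wild type and at least 7.42 on the other HeCo arrays. Of these 15 genes, 3 were detected on all arrays and Pax7 on none, and their part in the results was not tested. The differences of the members and the list medians are given below with and without these arrays, and the calls over all probes among the alternatives. The likeness values were computed with them only. Levels of different probes are not compared, because bead signal also depends on the probe.

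Of the 15 member probes, 8 were kept: both of Eml1, both of Eml3, 1 each of Eml2, Eml4 and Eml5, and ILMN_1229073. The other 7 were at or near background, among them all 3 probes of Eml6.

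Eml1 was the member that differed most, and its probes went opposite ways. ILMN_1214866 ran from 8.24 (wild type 10) through a median of 8.54 to 8.71 (wild type 1) in wild type. In HeCo it ran from 4.40 (HeCo 14) through a median of 4.52 to 4.67 (HeCo 15). It was thus detected on 8 of 8 wild-type and 0 of 8 HeCo arrays, and the groups lay far apart. Its deposited signal, before any correction, was 312.3 to 509.3 in wild type and 66.05 to 96.86 in HeCo. Normalized means were 8.51 ± 0.15 (SD, n = 8) and 4.51 ± 0.08 (SD, n = 8), a fitted difference of -4.00 (SE 0.08). Because HeCo was at background, the fall is stated as a bound of at least 11.4-fold, which applies to background-corrected signals only. The dim side of that bound was set, on each array, at the faintest signal among detected probes, or at the level of the probe itself if this lay above it. On every HeCo array its detection p lay between 0.1848 and 0.7105, within the range of the negative controls.

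The second Eml1 probe showed the mirror image. ILMN_3137207 ran from 4.49 through a median of 4.54 to 4.75 in wild type, with detection p-values of 0.1442 to 0.4733. In HeCo it ran from 6.04 (HeCo 5) through a median of 6.44 to 7.05 (HeCo 6), and every detection p was 0. It was detected on 0 of 8 wild-type and 8 of 8 HeCo arrays, with no overlap. The deposited signals were 72.58 to 82.57 in wild type and 128.5 to 191.6 in HeCo, a narrow interval above background. Means were 4.57 ± 0.09 (SD, n = 8) and 6.51 ± 0.37 (SD, n = 8), a rise of at least 2.77-fold by the same bound (fitted difference 1.94, SE 0.13). The annotation gives both probes the same transcript accession. Their places within the transcript were not analysed here, so the opposite differences are reported per probe and no single value is given for the gene.

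The unannotated probe was lower in HeCo, as was ILMN_1214866, but stayed detected there. ILMN_1229073 ran from 8.30 (wild type 1) through a median of 8.91 to 9.20 (wild type 4) in wild type. In HeCo it ran from 6.03 (HeCo 14) through a median of 6.11 to 6.55 (HeCo 8). The deposited signals were 402.2 to 712.5 and 112.3 to 173.0, and the probe was detected on all 16 arrays with detection p of 0. The means of 8.86 ± 0.26 (SD, n = 8) and 6.17 ± 0.17 (SD, n = 8) differed by -2.69 (SE 0.10), 6.46-fold lower in HeCo. The annotation names no gene for this probe, and none is given to it here.

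Among all 18532 kept probes, ILMN_1214866, ILMN_1229073 and ILMN_3137207 ranked 1, 2 and 3 by the size of their difference, which is how they were chosen. In the limma fit across all kept probes, 16 probes (0.0863%) had an adjusted p under 0.05, and 3 of the 8 kept members were among them. ILMN_3137207 was among the 10 called higher in HeCo (0.054%), and ILMN_1214866 and ILMN_1229073 were among the 6 called lower (0.0324%). A difference above 1 in size was found for 8 kept probes (0.0432%), again with these 3 among them. The arrays of the genotypes did not overlap for 23 kept probes (0.124%), the same 3 members included. Nothing is read from these shares or calls, since the choice of members used the contrast. Each Eml1 probe also passed the detection filter only through the genotype in which it was detected. Detection on all arrays of 1 genotype and none of the other rests on the same contrast, so its rarity is only described too. It occurred for 3 of the 45281 probes (0.00663%). ILMN_1214866 was the 1 probe detected in wild type alone (0.00221%), and ILMN_3137207 was 1 of 2 detected in HeCo alone (0.00442%). The other, named after its values were seen, was a probe of the circadian repressor Ciart, ILMN_1236079, where the difference was far smaller (4.82 ± 0.09 in wild type and 5.22 ± 0.12 in HeCo, SD, n = 8 each).

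The 3 differences were also computed within subsets of the arrays, as a description. The arrays of the genotypes did not overlap for these probes, so no subset could reverse a direction. Without HeCo 7 and HeCo 16 they were -4.00 (SE 0.09) for ILMN_1214866, 1.84 (SE 0.13) for ILMN_3137207 and -2.66 (SE 0.11) for ILMN_1229073. Within title numbers 1 to 8, with 4 arrays of each genotype, they were -4.13, 2.01 and -2.58, and within title numbers 9 to 16 they were -3.87, 1.86 and -2.80. Within description numbers 1 to 8 they were -3.99, 2.04 and -2.75, and within 9 to 16 they were -4.00, 1.84 and -2.64. Without background correction the differences shrank to -2.46, 0.944 and -1.98, so the fold bounds above do not carry over to uncorrected signals.

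Variation among arrays of 1 genotype was not used to choose the members, so it could be tested. In HeCo, ILMN_1214866 was at background, so its spread there is not compared. The mutant signal of ILMN_3137207 was more variable (SD 0.37) than that of ILMN_1229073 (SD 0.17). It was highest on HeCo 6, HeCo 7 and HeCo 16 (6.706) and lowest on HeCo 5 and HeCo 15. HeCo 7 and HeCo 16 are the arrays set apart above by their regional markers, and their part here was not tested. HeCo 15 was low only after normalization: its deposited signal was 165.55, against 128.46 on HeCo 14. ILMN_3137207 did not vary measurably with ILMN_1229073 among the 8 HeCo arrays (Pearson's r = -0.412, two-sided exact permutation p = 0.332; Spearman's rho = -0.429, exact p = 0.299). On HeCo 6 and HeCo 7 the former was 7.05 and 6.92 and the latter 6.06 and 6.05. On HeCo 8, where ILMN_1229073 was highest, ILMN_3137207 lay near its median at 6.41. Leaving out HeCo 6 and HeCo 7, the arrays farthest from the median of ILMN_3137207, r was -0.167. In wild type, ILMN_1214866 and ILMN_1229073 had r = -0.331 (exact p = 0.41) and rho = -0.0714 (exact p = 0.882), and r = 0.506 without wild type 10 and wild type 1. None of the 6 relations among these probes within the genotypes passed (exact permutation tests, lowest p adjusted over the 6 by Benjamini-Hochberg 0.882 for r and 0.898 for rho). In 4 of the 6, 1 probe was at background on all arrays. With 8 arrays, relations of moderate strength cannot be seen.

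Of Eml2 to Eml6, 5 of 12 probes were kept, and for each of these the arrays of both genotypes overlapped. None passed the threshold (limma adjusted p = 0.8 to 0.991 over all kept probes, smallest unadjusted p = 0.144), against 0.0863% of all probes. In bulk brain RNA, a change in the number of cells of a type and a change in RNA per cell cannot be told apart.

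Eml2 encodes a protein whose human counterpart binds microtubules and lowers their stability in vitro. Its probe ILMN_2601281 was close to background, running from 5.17 through a median of 5.37 to 5.59 in wild type. In HeCo it ran from 4.95 through a median of 5.40 to 5.55, the lowest being HeCo 16, where it was not detected. Means were 5.38 ± 0.16 and 5.37 ± 0.18 (SD, n = 8 each), with a difference of -0.00624 (SE 0.09; 95% interval -0.21 to 0.20), and 0.05 (SE 0.09) without HeCo 7 and HeCo 16. The second Eml2 probe, ILMN_1229138, was detected on no array (lowest detection p 0.1026).

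Eml3, whose human counterpart takes part in building the mitotic spindle, was read by a pair of probes. ILMN_2830979 ran from 5.90 through a median of 6.13 to 6.44 in wild type and from 5.82 through 6.05 to 6.24 in HeCo. ILMN_2830983 ran from 5.63 through a median of 5.84 to 6.17 in wild type and from 5.17 through 5.73 to 6.05 in HeCo. Both were detected on all 16 arrays, and both had slightly lower means in HeCo within overlapping ranges. The differences were -0.12 (SE 0.09; 95% interval -0.31 to 0.07) and -0.17 (SE 0.11; 95% interval -0.40 to 0.07), and 2 of 8 HeCo arrays lay above the wild-type mean for each. Without HeCo 7 and HeCo 16 the differences were -0.11 (SE 0.10) and -0.21 (SE 0.12). Over the 16 arrays these probes of 1 gene did not vary measurably together (r = 0.209, permutation p = 0.437; rho = 0.028, permutation p = 0.918; r = -0.392 without the 2 arrays farthest from the median of the former).

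Eml4, best known in people for its fusion with the kinase ALK in lung cancer, had the smallest spread within groups among the kept member probes. ILMN_1253677 ran from 8.78 through a median of 9.00 to 9.15 in wild type and from 8.82 through 8.96 to 9.11 in HeCo. It was detected on every array with detection p of 0, and the ranges of the genotypes were nearly the same. Means were 8.97 ± 0.13 and 8.98 ± 0.10 (SD, n = 8 each), with a difference of 0.00791 (SE 0.07; 95% interval -0.14 to 0.15). This spread was at percentile 8.77 of all kept probes, close to that of ILMN_1214866 (11), which was at background in HeCo. Without HeCo 7 and HeCo 16 the difference was 0.02 (SE 0.07).

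Eml5, a member with tandem WD-repeat domains, had 1 kept probe of 4. ILMN_3114898 ran from 5.45 (wild type 9) through a median of 6.02 to 6.23 in wild type and from 5.60 (HeCo 5) through 6.22 to 6.35 in HeCo. All but 2 HeCo arrays lay above the wild-type mean, within overlapping ranges. Means were 5.99 ± 0.25 and 6.13 ± 0.28 (SD, n = 8 each), with a difference of 0.14 (SE 0.12; 95% interval -0.12 to 0.40), and 0.10 (SE 0.13) without HeCo 7 and HeCo 16. The value depended on the lowest array of each genotype: it was 0.0604 without wild type 9 and 0.213 without HeCo 5. Of the others, ILMN_1214678 was detected on wild type 2, wild type 10 and HeCo 14 only. ILMN_2694731 and ILMN_2716820 were detected on no array (lowest detection p 0.3739 and 0.5737).

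Eml6, the other member with tandem domains, gave no signal that could be compared. ILMN_1220973 and ILMN_1242778 were detected on no array (lowest detection p 0.2425 and 0.2756), and ILMN_2432780 on HeCo 15 alone (detection p 0.03739). Its transcript was thus not detectable with these probes at this sensitivity.

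Genes of proteins that work with the family showed no called difference. The list held the kinases Nek6, Nek7 and Nek9, which bind or phosphorylate EML proteins in human cells, Nudc, a partner of human EML4, and Rpgrip1l, a ciliary protein that binds Eml1. It also held the gamma-tubulin and augmin genes that nucleate microtubules in the spindle. Of 20 genes, 12 were kept with 17 probes, of which 0 rose, 0 fell and 17 did not pass (limma, 0 at an unadjusted p under 0.05; 0.0863% of all kept probes were called). The median difference was -0.0225 (-0.0327 without HeCo 7 and HeCo 16), against -6.26e-05 over all kept probes, and the median size 0.0542 against 0.0719. The smallest p-values belonged to Nek9 (-0.16, SE 0.09, limma adjusted p = 0.742; -0.00348, SE 0.07, for its other probe) and Tubgcp6 of the gamma-tubulin complex (-0.17, SE 0.10, adjusted p = 0.778). For Rpgrip1l the difference was 0.05 (SE 0.09). The kinases Nek6 and Nek7 had no kept probe.

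The tubulins, the subunits of the microtubules to which EML proteins bind, gave the same count. Of 12 genes, 11 were kept with 16 probes, and 0 rose, 0 fell and 16 did not pass (limma, 0 at an unadjusted p under 0.05), where 0.0863% of all kept probes were called and 1293 of 18532 had an unadjusted p under 0.05. The median difference was -0.0288, and -0.00579 without HeCo 7 and HeCo 16. The smallest p-values were those of 1 of the Tubb2b probes (-0.07, SE 0.05, limma adjusted p = 0.813; the other 4 between -0.06 and 0.09) and of Tubb4a (-0.11, SE 0.09, adjusted p = 0.833). Tubulin genes are close in sequence, so a probe may also read its neighbours in the family.

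Genes beside Eml1 on its chromosome share its position with the mutation and with any linked strain difference. Of the 10 protein-coding genes on each side in the RefSeq gene order, 10 in all were kept, with 19 probes, and 0 rose, 0 fell and 19 did not pass (limma, 0.0863% of all kept probes called). At an unadjusted p under 0.05 there were 4 of the 19 probes, against 1293 of 18532 over all. The median size of the differences was 0.129, against 0.0719 over all kept probes, and this excess was not tested. The median difference was 0.057, and 0.0248 without HeCo 7 and HeCo 16. Leaving out wild type 10 alone gave 0.0264, and leaving out HeCo 7 alone 0.0273. The differences ran from -0.34 to 0.33, the upper end being 1 of 4 probes of the transcription factor gene Bcl11b, named after its values were seen, which came to 0.19 without HeCo 7 and HeCo 16. Evl, which encodes an actin regulator and lies next to Eml1, had 0.07 (SE 0.06, limma adjusted p = 0.844), and 0.05 without those arrays. The nearest kept gene on the other side, Setd3, an actin histidine methyltransferase, had 0.23 (SE 0.08, limma adjusted p = 0.598), and 0.25 without HeCo 7 and HeCo 16. Setd3 had the smallest p of this list. For it, 8 of 8 HeCo arrays lay above the wild-type mean, and how often this occurs over all kept probes was not computed. Dlk1, an imprinted gene of a Delta-like membrane protein, had -0.34 (SE 0.13, adjusted p = 0.623), which came to -0.17 without HeCo 7 and HeCo 16; its other probe had -0.20 (SE 0.11), and -0.05 without them. Cyp46a1, Hhipl1, Ccdc85c and Ccnk, which lie between Setd3 and Eml1, had no kept probe.

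The genes whose signal ran most like each member were found by Pearson's r over arrays, as a description without a test. Over the 8 wild-type arrays, ILMN_1214866 was most like probes of the carbonic anhydrase-related gene Car10 (r = 0.989), the Ras GTPase-activating protein gene Rasa1 (0.987) and the profilin gene Pfn2 (0.982), among 15981 candidate probes of which 99% lay below 0.887. Over the 8 HeCo arrays, ILMN_3137207 was most like Angel2 (0.963), Hbp1 (0.963) and the layer 5 transcription factor gene Etv1 (0.96), where 99% lay below 0.84. ILMN_1229073 was most like Slc45a4 (0.965), Oscar (0.96) and Bmp2k (0.948) over the same arrays, where 99% lay below 0.743. For this probe HeCo 8 stood apart (6.551, the next highest 6.251), and r was not computed without it. The points share array-wide variation.

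For the other members, deviations from the group means over all 16 arrays were compared. Eml4 was most like the endothelial cadherin gene Cdh5 (r = 0.911), Ppm1e (0.887) and Znfx1 (0.877). Eml3, by ILMN_2830979, was most like Nlrx1 (0.891), Wdr31 (0.8) and Cbr3 (0.773). Eml5 was most like the glutamate receptor gene Gria2 (0.86), Fezf1 (0.84) and Nhlrc2 (0.829), and Eml2 most like Neurl4 (0.844), Mast1 (0.804) and Bap1 (0.802). Among all pairs of kept members, r of the deviations was highest for ILMN_1214866 with Eml5 (0.635) and for Eml4 with ILMN_1229073 (0.628). It was lowest for ILMN_1214866 with the Eml3 probe ILMN_2830983 (-0.488). ILMN_1214866 was at background on every HeCo array, so its deviations there carry no measured signal.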

How the data were processed

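Intensities on a linear scale and detection p-values for each probe and array were deposited by the authors as a table not normalized by them. A detection p-value of this kind is set by the negative control beads. The submitters' processing notes name GenomeStudio, without its role or version. The authors also deposited a series matrix of linear intensities, which match a quantile normalization without background correction to within 0.004741 (log2) and served as an alternative.

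In R 4.3.3 with limma 3.58.1, signals were corrected and normalized with neqc (offset 16, log2). Probes detected (p under 0.05) on at least 8 arrays were kept (18532). The genotypes were compared in limma (lmFit, then eBayes with trend) without covariates, with Benjamini-Hochberg adjustment over all kept probes. Correlations were tested by exact permutation of pairings, or by 100000 random ones over 16 arrays. The fit and the correlation test were tested on simulated data. Intervals use 95%. Symbols were taken from a RefSeq table by Entrez identifier, which was found there for 34807 of 34885 probes with 1 symbol. The rest kept the symbol of the annotation. The number of arrays limits precision.

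Members and gene lists were chosen with earlier results of these data known. Genes named are all members, the 2 genes of each other list with the smallest p (none passed), the nearest kept gene on each side of Eml1, and the 3 genes most like each member. Ciart, Rpgrip1l, Nek6, Nek7, the remaining neighbours without a kept probe and the pairs among members were named after their values were seen. Slide and scan date are not in the labels, and title numbers alternate by genotype in blocks of 4, so values were also computed within 1 to 8 and 9 to 16.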

Additional observations from a re-analysis of the deposited data

Results flagged for a closer look

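In 13 groups of 8 arrays in which a kept member probe was detected throughout, 2 held 1 array farther from the rest than Dixon's 95% critical value allows; chance flags about 1 in 20 groups. ILMN_1229073 was 6.551 on HeCo 8, and the next highest HeCo array had 6.251. The Eml3 probe ILMN_2830983 was 5.169 on HeCo 15, the array with the highest mean deposited signal, and the next lowest HeCo array had 5.652. Without HeCo 15 the difference of that Eml3 probe was -0.0893, and without HeCo 8 that of ILMN_1229073 was -2.75. The part of array brightness in the Eml3 value was not tested.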

How the results depend on the processing

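No paired analysis was possible because the title numbers are not shared between the genotypes. With detection required on all 16 arrays, the Eml1 and Eml2 probes drop out. The differences of both Eml1 probes and ILMN_1229073 kept their direction under each alternative that gave a value. Leaving out arrays could not reverse these differences, since the genotypes did not overlap for these probes, and nothing is read from it. With quantile normalization and no background correction, and with the authors' series matrix, they were -2.46, 0.944 and -1.98. Both settings leave the background in the signal. Leaving out each array in turn gave -4.04 to -3.97, 1.86 to 2.00 and -2.77 to -2.64. No kept probe of Eml2 to Eml5, no partner gene, no tubulin and no neighbour passed under any alternative. Leaving out 1 array moved the differences of Eml2 (-0.0358 to 0.0538) and Eml4 (-0.02 to 0.033) to either side of 0. On leaving out 1 array, the median of the partner genes ran from -0.0435 to 0.0014, above 0 only without wild type 12. That of the tubulins ran from -0.0367 to -0.00803. Over all alternatives the medians ran from -0.0549 to 0.0318 for the partner genes and from -0.0474 to 0.0531 for the tubulins. With median scaling they were 0.0318 and 0.0108, and that of the genes next to Eml1 was 0.107. The 16 probes called (10 higher, 6 lower, 62.5% higher) varied more. There were 20 with array weights (11 higher, 9 lower), 20 with title numbers 1 to 8 against 9 to 16 as a block (12 higher, 8 lower), 18 without the mean-variance trend, 14 without HeCo 7 and HeCo 16 (7 higher, 7 lower, 50% higher), 13 with median scaling (11 higher, 2 lower, 84.6% higher), 10 without a filter on dim probes (3 lower), 8 with detection on all 16 arrays (6 higher, 2 lower), and 12 with description numbers 1 to 8 against 9 to 16 as a block (3 lower). Within title numbers 1 to 8 and 9 to 16 there were 5 each (3 higher, 2 lower). Within description numbers 1 to 8 there were 6 (4 higher, 2 lower), and within 9 to 16 there were 4 (2 higher, 2 lower), with 8 arrays in each. Leaving out each array in turn gave 7 to 17 (5 to 10 higher, 2 to 7 lower); 7 were called without wild type 2, 9 without wild type 3, HeCo 5 or HeCo 14, and 10 without wild type 4, wild type 9 or HeCo 13. The cause was not tested. The median of the genes next to Eml1 was 0.173 over neighbours of all gene types, a choice added after seeing the data, where 6 probes of 3 genes remained. Eml6, and most probes of Eml5, are limited by signal over background.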
